A study of Mus musculus with 9 samples.

Results

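Reactive gliosis is the response of retinal glia to injury, and 10 genes known from it were followed through the mouse retina: *Gfap*, *Vim*, *Lcn2*, *Serpina3n*, *C4b*, *Edn2*, *Stat3*, *Cp*, *Socs3* and *Osmr*. They were chosen by name, with earlier results of these data known, and are 10 of the 37725 genes counted. For each gene, the UMIs (molecular tags that count each RNA molecule once) of a mouse were summed over its Müller glia, over its rods and over its cells of 11 other types. Levels are given as CPM, the UMIs of the gene scaled by all UMIs of the same cells of that mouse. Every one of the 10 genes was detected, from 210 UMIs of *Edn2* to 93714 of *Cp*.

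All 9 mice carried the RPE65-ERT2-Cre transgene with floxed miR-211 and miR-204, so that control mice differed in treatment and not in alleles. The paper of the series names Cre-negative mice given tamoxifen as its controls, whereas the titles of the control samples read here give corn oil. The 4 control mice (S01 to S04) had corn oil vehicle by intraperitoneal injection on 5 days from postnatal day 28, and the 5 double knockout (dKO) mice (S05 to S09) had tamoxifen at 75 mg/kg on the same days. Retina was taken for single-cell RNA sequencing at the 6 months given in the labels, and the series asks what follows in the retina when these microRNAs are lost from the retinal pigment epithelium (RPE). The Cre driver belongs to the RPE, so Müller glia, astrocytes and rods were not its targets. Because tamoxifen went to dKO mice alone, the drug and the deletion cannot be told apart. The labels give S06 and S07 a common animal number, and here they count as different mice.

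In an injured retina, Müller glia and the astrocytes of the inner surface build up intermediate filament proteins and secrete acute-phase and complement proteins. Cytokines of the gp130 family drive much of this program through receptors such as *Osmr*, whose kinases activate the transcription factor *Stat3*, while *Socs3* is induced by *Stat3* and dampens the same signal. Stressed photoreceptors are known to release signals to the glia, among them endothelin-2, the product of *Edn2*.

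Of 31089 cells, 27754 were assigned to 1 of 13 types by the UMIs of marker genes, and no barcode occurred in more than 1 mouse (0 shared). Total depth ranged from 15079143 UMIs in S05 to 66528160 in S06. The gate for Müller glia held 2098 cells, with 323, 299, 268 and 18 from the control mice in order and 36, 362, 62, 355 and 375 from the dKO mice in order. Rods numbered 15843 and the 11 other types 9813. All 5 Müller glia markers had UMIs in the gated Müller glia of every mouse, with *Glul* as the most abundant and a summed level from 7624 CPM in S05 to 13253 in S01. Mice S04, S05 and S07 stood apart from the rest. Rods made up 85.9%, 70.4% and 77.3% of their cells, against 32.7% to 45.9% elsewhere, and they had 0 gated fibroblasts each. Rod markers summed to 537, 676 and 797 CPM in their Müller glia, against 194 to 269 in the other mice.

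The mature sequences of the deleted microRNAs (RefSeq, table of GRCm38.p6) are shown because matches to their seed, bases 2 to 8 in capitals, were searched in the 3′-UTRs of the 10 genes.
miR-204-5p: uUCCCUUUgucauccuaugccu
miR-211-5p: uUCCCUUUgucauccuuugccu
The seed UCCCUUU is the same in both. Only *Gfap*, 1 of the 10 genes, has a match of 7 or 8 bases in the 3′-UTR of its canonical transcript (GENCODE M39, GRCm39). Of all 20702 genes with a 3′-UTR, 23.8% have such a match, and 16.0% have one that pairs with the whole seed. The matches of *Gfap* lie in the 1341 bases of the 3′-UTR of Gfap-201, on the minus strand of chromosome 11, and are shown in capitals with their flanks, first a match that starts at base 255 and then one that starts at base 385.
Gfap, chr11:102779232-102779258: ttagaattggAAGGGAAgaggaaagat
Gfap, chr11:102779101-102779128: attcagacagAAAGGGAAagtccctgag
A match is a description of letters, and for the other 9 genes its absence says only that these letters are not in the 3′-UTR read here. RPE cells, which the Cre driver targets, held 15 of the 3588 UMIs of *Gfap* (0.418%).

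Among the 12 types with at least 10 cells in 3 or more mice, *Osmr* was highest in RPE and fibroblasts, and *Stat3* and *Socs3* were highest in fibroblasts. Astrocytes, with that many cells in 2 mice, are outside these orders, and their levels with all mice summed were 60.3 CPM of *Osmr*, 329 of *Stat3* and 115 of *Socs3*. *Osmr*, the receptor chain for oncostatin M, had 53.2% of its 31906 UMIs in RPE cells. Its level was 1512 ± 671 CPM (SD, n = 7 mice with at least 10 cells) in RPE and 1074 ± 149 (n = 6) in fibroblasts, with overlapping ranges over mice. Below these came endothelial cells with 362 ± 69.4 and pericytes with 275 ± 125, and then, with no overlap with pericytes, Müller glia with 113 ± 29.8 (n = 9), whereas rods had 7.39 ± 2.44. *Stat3* was read in every gated type, from 1167 ± 297 in fibroblasts and 809.9 ± 330.4 in RPE, through 139 ± 21.7 in Müller glia and 84.4 ± 16.7 in rods, to 41.4 ± 10.2 in horizontal cells, and each type overlapped the next in this order. *Socs3* had 218 ± 62.4 CPM in fibroblasts (n = 6) and, with no overlap, 38.3 ± 25.4 in microglia (n = 3). In the few astrocytes of each mouse *Socs3* ran from 0 CPM in S04 to 266 in S06, with S01, S02, S03 and S06 within the fibroblast range and S04, S05, S08 and S09 below it. Müller glia had 17.4 ± 9.67 of *Socs3* and cones 11.3 ± 4.64, with overlapping ranges, and rods had 1.47 ± 0.406.

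*Edn2*, the photoreceptor ligand, was read mostly in rods, with 164 of its 210 UMIs (78.1%) there and 14.3% in cells that passed several gates. Rods had 1.95 ± 1.09 CPM (SD, n = 9). Cones, ganglion cells, microglia, astrocytes, endothelial cells, pericytes and fibroblasts had 0 UMIs of *Edn2*, and Müller glia had 1 UMI in 2098 cells, in S05. The 0 UMIs in the Müller glia of S01 allow up to 0.625 CPM (3 counts of 4802623), and those in S04 up to 13.9. In each mouse the limit was at least 27.8 CPM for microglia, 14.1 for astrocytes and 13.5 for pericytes. For endothelial cells it was at least 2.998 and for fibroblasts at least 2.95. All these limits of single mice lie above the mean of rods, so in no single mouse can these types be read as lower. Summed over mice, the 0 UMIs came from 3397075 UMIs of fibroblasts and 3925866 of endothelial cells, beside 164 from 96354447 in rods. For cones the limit ran from 0.640 CPM (S02) to 4.37 (S05). It lay below the level in rods of the same mouse in S01, S02, S03, S06, S08 and S09.

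*Gfap*, the astrocyte intermediate filament protein, was foremost an astrocyte transcript. The 48 gated astrocytes, 0.154% of all cells, held 2361 of its 3588 UMIs (65.8%), at 2226 CPM over all mice summed, and 95.8% of them had at least 1 UMI. Those cells were chosen by 5 markers that do not include *Gfap*. Per mouse with any gated astrocyte, the level ran from 877 CPM in S05, with 1 such cell, to 2996 in S08, with 8. Müller glia came next with 9.46 ± 11.1 CPM (SD, n = 9), a range that overlapped those of fibroblasts (3.12 ± 3.86, n = 6) and rods (2.96 ± 1.34, n = 9). *Vim*, the intermediate filament protein of Müller glia and mesenchymal cells, had 466 ± 63.0 CPM in fibroblasts, with no overlap with horizontal cells at 243 ± 29.4 (n = 7). Among the ordered types, endothelial cells (172 ± 65.3), pericytes (129 ± 111), microglia (103 ± 98.7) and Müller glia (76.4 ± 14.4) followed with overlapping ranges, and RPE had 21.6 ± 12.0, below the Müller glia in the mice with a *Vim* UMI in RPE, while the 0 UMIs in the 12 RPE cells of S07 allow up to 78.1. Rods had 3.52 ± 1.02 CPM of *Vim*, and astrocytes 134 with all mice summed.

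**Figure D1:**
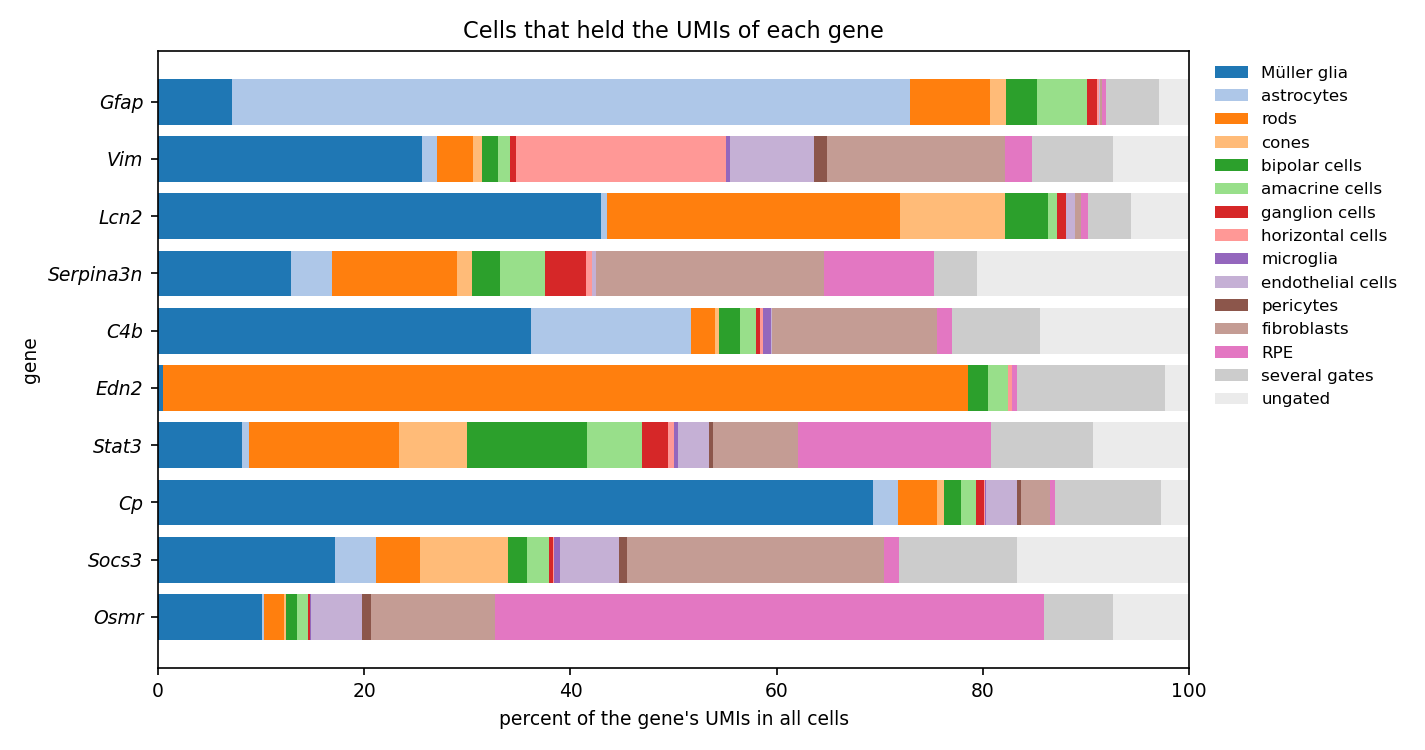
Percent of the UMIs of each gene (rows) that lay in each gated cell type, in cells that passed several gates and in ungated cells, over all 9 mice. Astrocytes held 65.8% of Gfap, rods 78.1% of Edn2, Müller glia 69.4% of Cp and RPE 53.2% of Osmr.

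Among the secreted proteins, *Cp* was the Müller glia transcript of the list. *Cp* encodes ceruloplasmin, a ferroxidase, and had 69.4% of its UMIs in Müller glia, at 2043 ± 243 CPM (SD, n = 9). Fibroblasts followed without overlap at 684 ± 309.6 (n = 6), and the 48 astrocytes had 2123 CPM over all mice summed. *C4b*, a complement component, was spread over several types, with 36.2% of its UMIs in Müller glia (26.0 ± 18.1 CPM), 16.1% in fibroblasts (93.9 ± 54.1) and 15.5% in astrocytes (319 CPM, all mice summed). Microglia had 39.3 ± 27.3 CPM of *C4b* (n = 3), a range that overlapped those of fibroblasts and Müller glia. *Serpina3n*, a secreted protease inhibitor, had 81.1 ± 74.5 CPM in fibroblasts, 11.6 ± 21.6 in RPE and 5.70 ± 4.77 in Müller glia, with each range overlapping the next, and 37.7 in astrocytes with all mice summed. *Lcn2*, which encodes the siderophore-binding protein lipocalin-2, had 335 UMIs in all, with 8.09 ± 16.7 CPM in Müller glia, 1.43 ± 0.394 in cones and 1.0 ± 0.314 in rods. In Müller glia its 144 UMIs came from 18 cells, and the 5 highest cells held 81.9% of them.

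**Figure D2:**
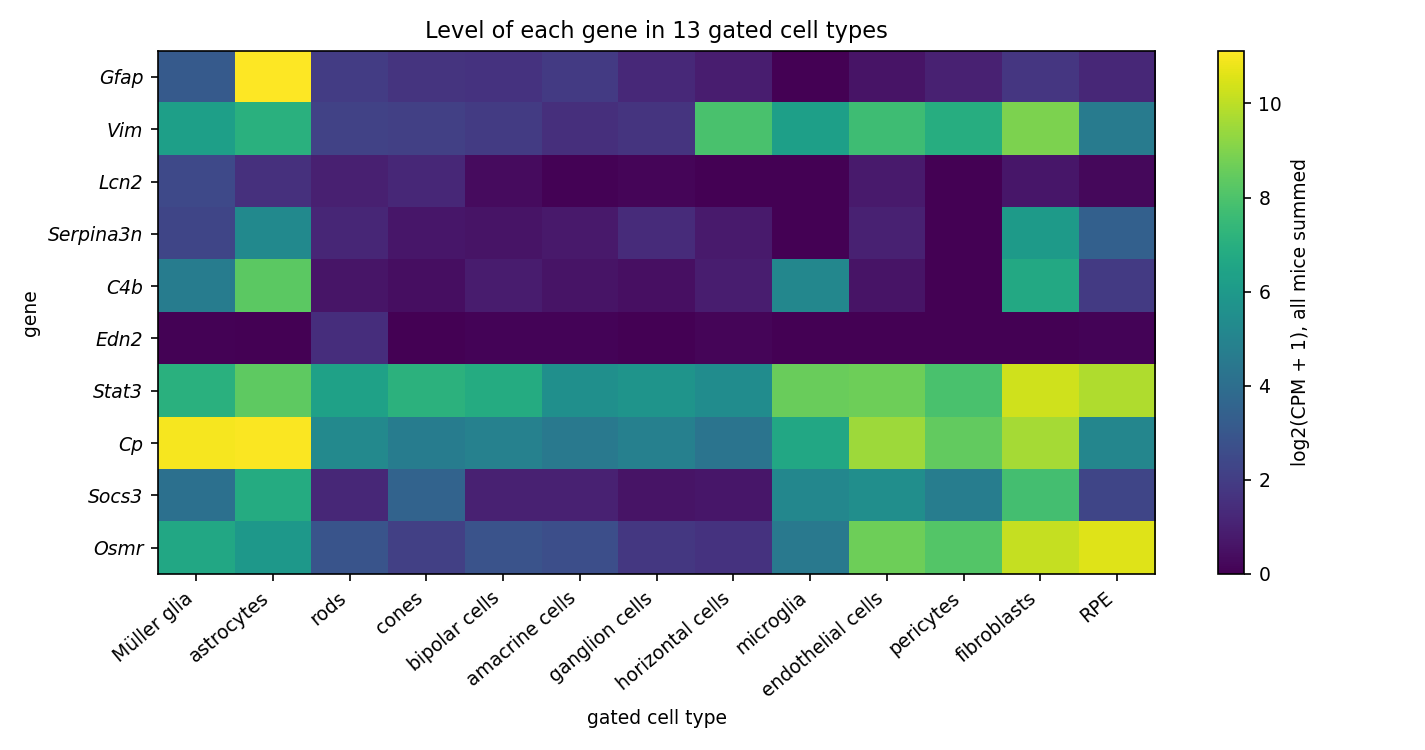
Level of each gene in the 13 gated types, as log2 of CPM plus 1 with all mice summed (colour scale). Gfap stands out in astrocytes at 2226 CPM, Cp in Müller glia and astrocytes, and Stat3 and Osmr in fibroblasts and RPE.

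Compared within each mouse, Müller glia carried more *Vim*, *C4b*, *Stat3*, *Cp* and *Osmr* than rods in 9 of 9 mice. The difference in log2 of CPM plus 1 was 5.74 ± 0.20 for *Cp* (SD, n = 9, exact paired permutation test, two-sided, unadjusted p = 0.00391, the smallest that 9 mice allow). It was 4.11 ± 0.35 for *Vim*, 3.79 ± 0.80 for *Osmr*, 3.74 ± 1.06 for *C4b* and 0.72 ± 0.25 for *Stat3*, each with the same exact p. For *Edn2* it was -1.29 ± 0.53, but the 0 UMIs in the Müller glia of S04 and S07 allow up to 13.9 and 3.79 CPM, above the 0.546 and 1.78 of their rods, so whether Müller glia had less cannot be read in these mice. *Socs3* was higher in Müller glia in 8 of 9 mice, by 2.51 ± 1.57 (exact p = 0.00781), and in S04 the order cannot be read, since the 0 UMIs of its 18 Müller glia allow up to 13.9 CPM, above the 1.39 of its rods. *Serpina3n* was higher in 8 of 9 mice, by 1.21 ± 1.22 (exact p = 0.0195), but with a stricter gate by 0.84 (exact p = 0.0625). With a pseudocount of 5 CPM the difference was 0.64 for *Serpina3n*. *Gfap*, with 0.71 ± 1.87 and 6 of 9 mice (exact p = 0.297), and *Lcn2*, with 0.48 ± 2.26 and 3 of 9 mice (exact p = 0.543), did not pass the test. For both genes the order in S04 cannot be read, since 0 UMIs in its Müller glia allow up to 13.9 CPM. Its rods had 3.03 CPM of *Gfap* and 1.39 of *Lcn2*. For *Lcn2* the same holds in S03 (up to 0.748 against 0.623 in rods) and in S05 (up to 6.13 against 1.23). All p are unadjusted, and 10 genes were compared.

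The share of cells with a UMI was read in Müller glia beside the share in rods. Müller glia had a median of 14814.5 UMIs per cell and rods 4685, so shares were also taken after each cell was thinned to 3000 UMIs, which left out 14 control and 32 dKO Müller glia and 1368 control and 1869 dKO rods. *Cp* was in 99.6% of Müller glia and 15.7% of rods, and in 98.6% and 9.26% when thinned. *Vim* was in 57.5% of Müller glia and 1.70% of rods (19.3% and 0.849% thinned), and *Osmr* in 60.2% and 2.66% (23.7% and 1.59% thinned). *C4b* was in 13.2% of Müller glia and 0.278% of rods (4.34% and 0.111% thinned). For *Gfap* the share was 2.96% in Müller glia and 1.48% in rods, and 0.877% and 0.754% after thinning, so the shares lay close together at equal depth. *Lcn2* was in 0.858% of Müller glia and 0.568% of rods, and thinned in 0.244% and 0.325%. In Müller glia 4 cells had at least 5 UMIs of *Lcn2*, with 41 in the highest, while no rod had more than 2. For *Gfap*, 7 Müller glia had at least 5 UMIs, and 5 of these also had UMIs of the astrocyte marker *Pax2*.

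In Müller glia, the dKO and control mice overlapped for all 10 genes, and the quasi-likelihood test of edgeR with Benjamini-Hochberg adjustment over 12983 genes called none of the 8 that had enough counts (*Lcn2* and *Edn2* were below its filter on low counts). Of those 8 genes, 0 had an adjusted p below 0.05, as did 0% of all genes tested. An unadjusted p below 0.05 was found for 0 of the 8, beside 2.21% of all genes (287), and groups without overlap for 0 of the 8, beside 1.1% (143 genes). DESeq2 called 1 gene in Müller glia, which was not on the list. Of the 8, 5 had a positive log2 fold change and 3 a negative, with a median of 0.13, beside 0.0024 over all genes.

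The receptor, the factor and the inhibitor of the cytokine pathway overlapped between the groups in Müller glia. In CPM, *Osmr* had 106, 92.2, 78.8 and 125 in the control mice (S01 to S04, in order) and 161, 85.4, 152, 129 and 91.4 in the dKO mice (S05 to S09, in order). The dKO mice S05, S07 and S08 lay above every control mouse, while S06 and S09 lay among them. The control mean of *Osmr* was 100.4 ± 19.8 (SD, n = 4) and the dKO mean 124 ± 34.4 (SD, n = 5), and its log2 fold change was 0.28 (standard error 0.19), or 0.13 among the mice other than S04, S05 and S07. *Stat3* had 125, 118, 124 and 139 CPM in control mice and 176, 116, 133, 169.9 and 146 in dKO mice. The dKO mice S05, S08 and S09 were above all control mice and S06 was below them. Its log2 fold change was 0.21 (standard error 0.13), from 127 ± 8.81 (SD, n = 4) to 148 ± 25.0 (SD, n = 5). *Socs3* had 20.4, 16.7, 15.0 and 0 CPM in control and 30.6, 12.6, 30.3, 21.0 and 10.2 in dKO Müller glia, and the groups overlapped. The edgeR log2 fold change of *Socs3* was 0.083 (standard error 0.35), and it was negative, at -0.27, among the mice other than S04, S05 and S07.

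*Gfap* in Müller glia depended on a few cells. Control mice had 0.416, 17.7, 3.99 and 0 CPM, the last from 0 UMIs, and dKO mice had 34.7, 6.22, 3.79, 13.4 and 4.92. S05, S02 and S08 were highest, from both groups, and control mouse S01 lay below every dKO mouse. S04 cannot be placed, since its 0 UMIs allow up to 13.9 CPM. Of the 71 UMIs in S08, 60 came from 1 cell without a *Pax2* UMI. The highest cells of S02 (37 of 77 UMIs), S05 (15 of 17), S06 (25 of 44) and S09 (18 of 26) had *Pax2* UMIs. Those of S01, S03 and S07 had none. Without the highest cell of each mouse, S02, S05 and S08 had 9.18, 4.16 and 2.09 CPM. The 5 highest cells held 64.1% of the 256 UMIs over all mice. The log2 fold change was 0.44 (standard error 0.77), and it was 2.23 without control mouse S02 (edgeR, unadjusted p = 0.0174, adjusted p = 1.0 after Benjamini-Hochberg adjustment), -0.073 without S01 and -0.56 with a stricter gate, under which fewer cells passed several gates (300 in place of 1578) and the Müller glia of S04 numbered 27 and those of S07 67. *Vim* had 87.5, 67.7, 73.5 and 107 CPM in control and 57.2, 82.9, 65.7, 75.6 and 71.4 in dKO Müller glia. Control mouse S04 was highest, dKO mouse S05 lowest, and the rest overlapped. For *Vim* the log2 fold change was -0.16 (standard error 0.26).

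**Figure D3:**
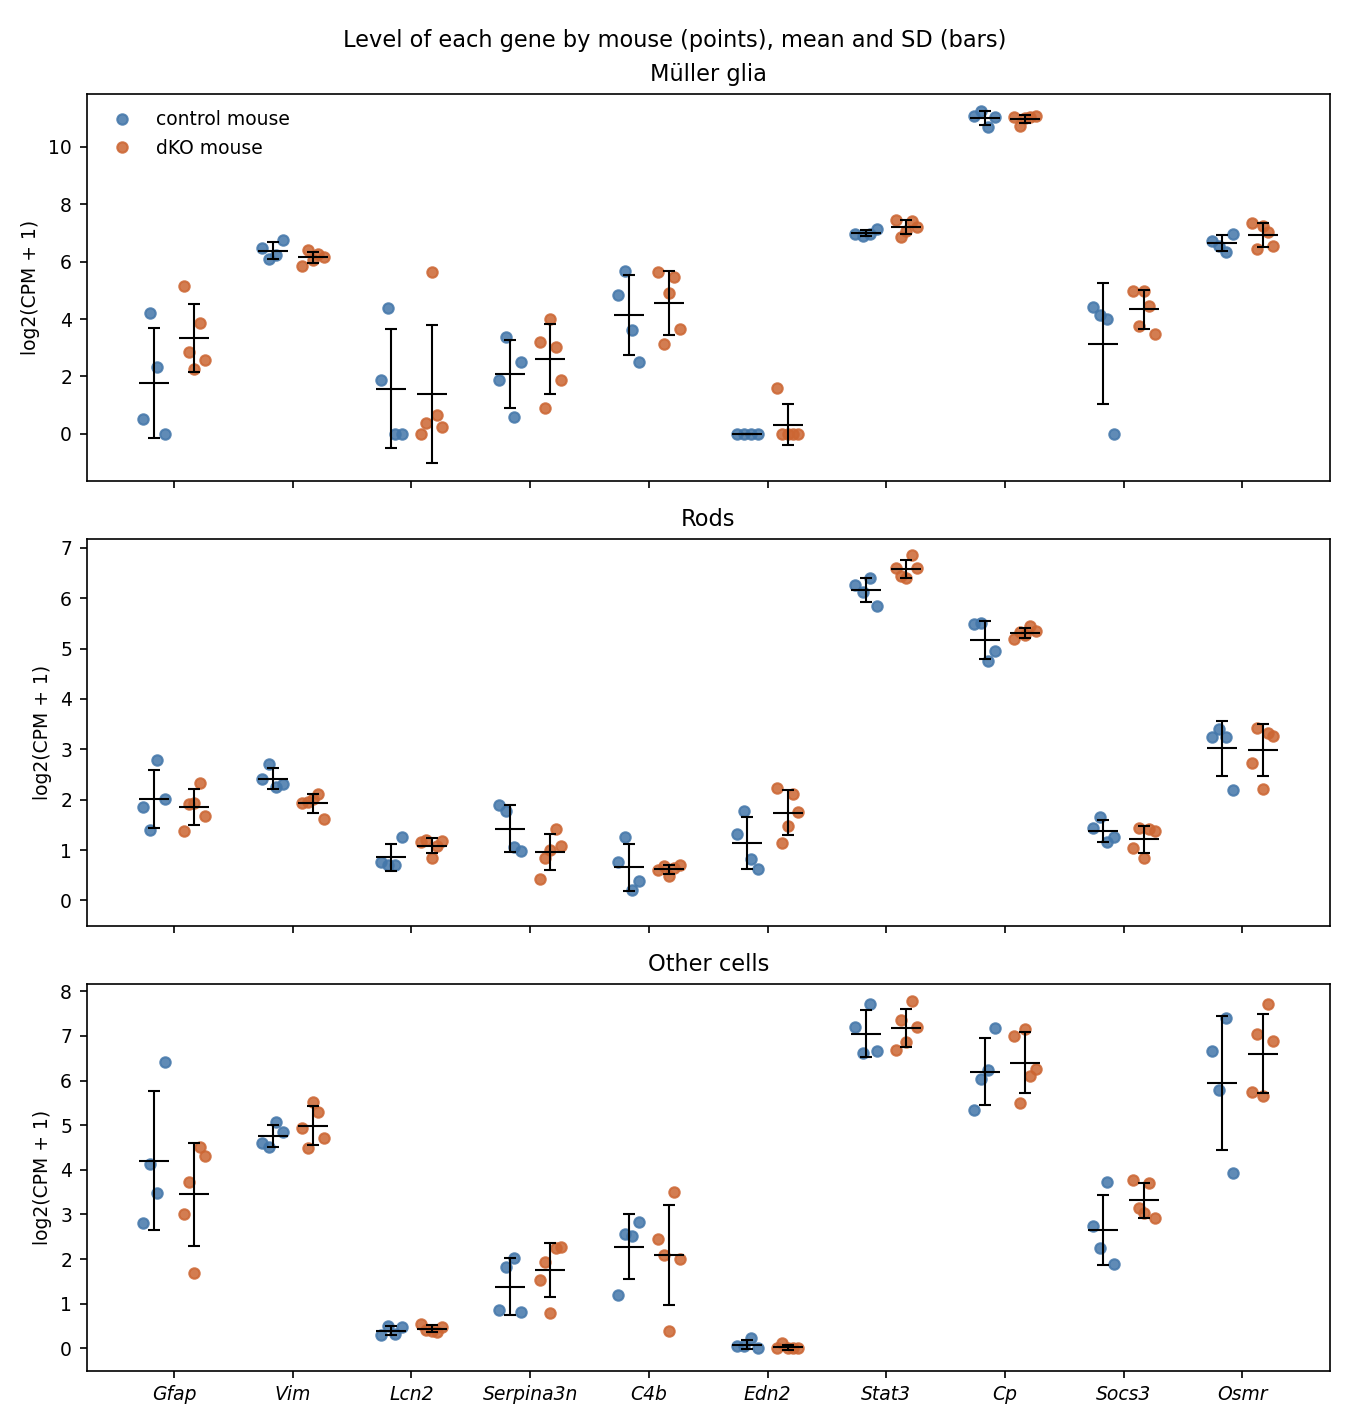
Level of each gene in every mouse as log2 of CPM plus 1 (points, control blue, dKO orange), with the mean and SD of each group (bars), in Müller glia, rods and other cells. In Müller glia the groups overlap for every gene, and in rods the 5 dKO mice lie below the 4 control mice for Vim.

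For the secreted proteins, too, the groups of Müller glia overlapped. *Cp* had 2139.7, 2428, 1635 and 2089 CPM in control mice and 2085, 1687, 2051, 2121 and 2149 in dKO mice, and the log2 fold change was -0.060 (standard error 0.12). S03 and S06 were the low mice, 1 in each group. *C4b* had 27.7, 49.8, 11.2 and 4.63 CPM in control and 49.0, 7.78, 29.1, 43.0 and 11.5 in dKO mice, with high and low mice in both groups. Its group means, 23.3 ± 20.1 (SD, n = 4) and 28.1 ± 18.4 (SD, n = 5), and its edgeR log2 fold change of -0.23 (standard error 0.55) differ in sign, and DESeq2 gave 0.14. *Serpina3n* ran from 0.499 to 9.40 CPM in control and from 0.848 to 15.2 in dKO mice (log2 fold change 0.17, standard error 0.80). *Lcn2* was high in 1 mouse of each group, S02 with 19.7 CPM and S07 with 49.3, and all 39 UMIs of S07 were in 1 cell.

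In rods, 3 genes set the picture. *Stat3* was higher in dKO rods, *Vim* was lower, and *Edn2*, the ligand that rods themselves express, had its highest values in dKO mice. None passed the adjusted test, with 0 of the 7 genes tested and 0% of all 13649 genes below an adjusted p of 0.05 in the quasi-likelihood test of edgeR with Benjamini-Hochberg adjustment (*Lcn2*, *Serpina3n* and *C4b* were below the filter). Unadjusted, 2 of the 7 were below 0.05 (*Stat3* and *Vim*), beside 1.88% of all genes (257), and 1 of the 7 had groups without overlap (*Vim*), beside 0.703% (96 genes). DESeq2 called 2 genes in rods, of which 0 are on the list. The median log2 fold change was -0.060 over the 7, with 3 positive and 4 negative, and -0.011 over all genes.

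*Stat3* (ENSMUSG00000004040, chr11:100775924-100830450 of GRCm39, minus strand) had 75.6, 69.0, 83.8 and 56.8 CPM in the rods of control mice and 95.4, 85.8, 83.2, 114 and 95.6 in those of dKO mice. The dKO mice S05, S06, S08 and S09 were above every control mouse, and S07 lay just below control mouse S03. The means were 71.3 ± 11.4 CPM (SD, n = 4) and 94.9 ± 12.2 (SD, n = 5), and the exact permutation test on log2 of CPM plus 1 gave p = 0.0159 (two-sided, unadjusted over 10 genes, smallest possible 0.00794). The log2 fold change was 0.39 (standard error 0.11, the quasi-likelihood test of edgeR with Benjamini-Hochberg adjustment, unadjusted p = 0.00483, adjusted p = 1.0). Over all 17 alternatives it ran from 0.32 to 0.47, with adjusted p from 0.873 to 1.0. The share of rods with a *Stat3* UMI was 24.3% ± 2.35 (SD, n = 4) and 29.0% ± 3.32 (SD, n = 5; exact p = 0.0635), and 16.2% ± 1.5 and 20.2% ± 2.62 when thinned (exact p = 0.0476). In the same rods, the summed Müller glia markers ran from 103 to 210.2 CPM in control and from 124 to 168 in dKO mice. Bipolar cell markers were higher for 7 of 10 (median log2 fold change 0.22), and ganglion cell markers for 2 of 4 tested (median 0.19, 1 of them with an unadjusted p below 0.05 in edgeR), and their part in the result was not tested. Summed bipolar cell markers ran from 1484 to 2101 CPM in control rods and from 1542 to 1999 in dKO rods. *Stat3* itself had 110 ± 14.3 CPM in bipolar cells and 52.1 ± 5.36 in ganglion cells, against 84.4 ± 16.7 in rods. *Stat5a*, a protein-coding gene, overlaps *Stat3* on the opposite strand, and whether counting used the strand is not stated, so UMIs from the shared stretch are uncertain.

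*Vim* (ENSMUSG00000026728, chr2:13578738-13587639, plus strand) had 4.3, 5.58, 3.74 and 3.94 CPM in control rods and 2.81, 2.89, 3.06, 3.31 and 2.06 in dKO rods. Each dKO mouse was below each control mouse. The means were 4.39 ± 0.825 (SD, n = 4) and 2.83 ± 0.471 (SD, n = 5; two-sided exact permutation p of 0.00794, the lowest possible with 4 mice against 5). The log2 fold change was -0.64 (standard error 0.21, the quasi-likelihood test of edgeR with Benjamini-Hochberg adjustment, unadjusted p = 0.00893, adjusted p = 1.0). These levels rest on 13 to 86 UMIs per mouse and on 1.70% of rods, near those of bipolar cells (2.72 ± 1.12 CPM). Markers of horizontal cells, where *Vim* had 243 CPM, were lower too, but their summed level overlapped between the groups. All 3 of the 5 horizontal cell markers that could be tested in rods were lower in dKO mice (median log2 fold change -0.75), 1 of them with an unadjusted p below 0.05 in edgeR. The summed level over all 5 was 6.50, 15.0, 6.39 and 11.8 CPM in control rods and 4.92, 8.28, 4.84, 5.89 and 7.12 in dKO rods, with *Calb1* or *Onecut2* the most abundant. Markers of other types with *Vim* went both ways in rods. Müller glia markers were lower for 3 of 5 (median -0.038) and endothelial markers for 2 of 2 tested (-0.032). Pericyte markers (median 0.13) and RPE markers (0.090) were each higher for 2 of 3 tested. The 1 fibroblast marker (0.061) and 1 microglia marker (0.16) tested were higher. Without the 5% of cells with the most UMIs, the log2 fold change of *Vim* was -0.27 (edgeR, unadjusted p = 0.291). The part of RNA from horizontal cells or these other types in the difference was not tested.

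*Edn2* (ENSMUSG00000028635, chr4:120018403-120024557, plus strand) had 1.5, 2.41, 0.779 and 0.546 CPM in control rods and 3.69, 1.20, 1.78, 3.31 and 2.37 in dKO rods. S05 and S08 were above all control mice, while control mouse S02 lay above the other 3 dKO mice. The means were 1.31 ± 0.838 (SD, n = 4) and 2.47 ± 1.04 (SD, n = 5; exact permutation test, two-sided, p = 0.103). Its log2 fold change was 0.87 (standard error 0.44, edgeR, unadjusted p = 0.0724, adjusted p = 1.0 after Benjamini-Hochberg adjustment), and it was 0.45 among the mice other than S04, S05 and S07 and 1.30 without S02. The share of rods with an *Edn2* UMI was 0.520% ± 0.254 in the 4 control mice and 1.19% ± 0.476 (SD) in the 5 dKO mice (exact p = 0.0476), and 0.309% and 0.672% when thinned (exact p = 0.0556). The highest single rod had 4 UMIs, so no few cells carried the sum.

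**Figure D4:**
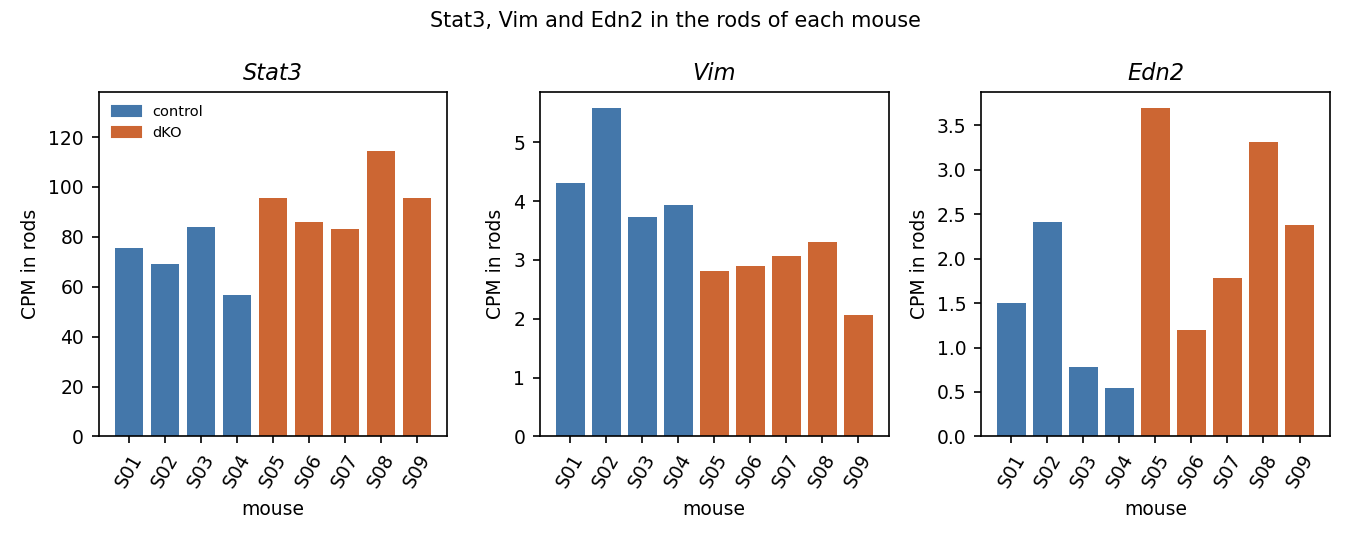
Level in CPM of Stat3, Vim and Edn2 in the rods of each mouse (bars from 0, control blue, dKO orange). For Vim every dKO mouse (2.06 to 3.31) is below every control mouse (3.74 to 5.58), and for Stat3 and Edn2 the groups overlap.

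The groups also overlapped for the remaining genes of rods. *Serpina3n*, below the filter of the fit, had 2.70, 2.41, 1.09 and 0.970 CPM in control rods and 0.352, 0.798, 0.997, 1.66 and 1.11 in dKO rods. S05 and S06 were below all control mice, but 1 rod held 20 of the 27 UMIs of S01. The group means were 1.79 ± 0.890 and 0.982 ± 0.475 (SD, two-sided exact permutation p = 0.159). *C4b* had means of 0.638 ± 0.554 and 0.540 ± 0.0927 (exact p = 0.889) and *Lcn2* of 0.838 ± 0.373 and 1.14 ± 0.210 (exact p = 0.135). The log2 fold change was 0.090 (standard error 0.15) for *Cp*, and *Socs3* had one of -0.36 (0.31), *Gfap* of -0.28 (0.35) and *Osmr* of -0.060 (0.32), and the last was positive, at 0.25, with a stricter gate. Whether dKO mice differed more in Müller glia than in rods was tested for each of the 10 genes by exact permutation of the mice. The lowest unadjusted exact p was 0.175, for *Gfap*, where the dKO minus control difference was 1.74 larger in Müller glia on the log2 scale. Without control mouse S02 this was 2.77 (exact p = 0.0179, the smallest that 3 mice against 5 allow). In both values S04 enters with 0 UMIs of *Gfap* in Müller glia, which allow up to 13.9 CPM, so neither is read as a difference. For *Stat3* the difference between Müller glia and rods was -0.20 (exact p = 0.246), so the higher level in dKO rods was not shown to be particular to rods.

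**Figure D5:**
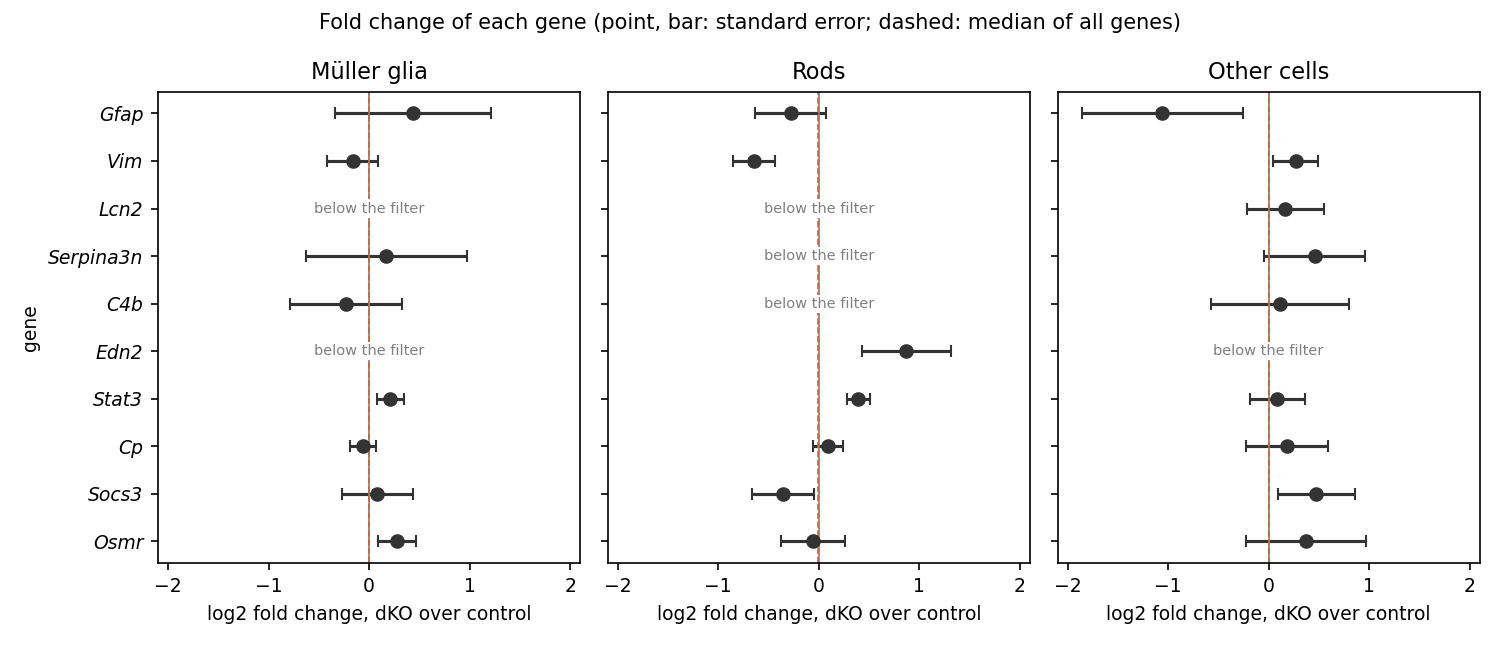
Log2 fold change (dKO over control, points) with standard error (bars) of each gene in Müller glia, rods and other cells, by edgeR. Dashed lines mark the median of all genes tested, and Stat3 (0.39) and Vim (-0.64) in rods lie farthest from 0 relative to their standard errors.

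In the other cells, taken as 1 sum per mouse, 8 of the 9 genes tested had a positive log2 fold change and *Gfap* a negative one (*Edn2* was below the filter). The test found 0 of the 9 below an adjusted p of 0.05, as for 0% of 19158 genes (the quasi-likelihood test of edgeR with Benjamini-Hochberg adjustment, and 0 by DESeq2). An unadjusted p below 0.05 was found for 0 of 9, beside 2.61% of all genes (500), and groups without overlap for 0 of 9, beside 0.872% (167). The median was 0.18 over the 9 and 0.0046 over all genes. For *C4b* the sign is unsure, with 0.11 in edgeR, group means of 4.27 and 4.27 CPM and a mean difference of -0.19 in log2 of CPM plus 1. *Gfap* had 6.04, 16.4, 10.2 and 84.2 CPM in control and 7.05, 12.3, 2.21, 21.7 and 18.9 in dKO mice. Control mouse S04 was far above all others. In S04, 3 gated astrocytes made up 6.79% of the UMIs of the other cells, against 0.296% to 0.681% in the other control mice, and all 5 astrocyte markers were lower in dKO mice (median log2 fold change -0.77, 0 of 5 with an unadjusted p below 0.05), but their part in the result was not tested. The log2 fold change of *Gfap*, -1.06 (standard error 0.80), was 0.23 without S04 and 0.69 among the mice other than S04, S05 and S07. Endothelial markers (5 of 5 higher in dKO mice, median 1.40) and fibroblast markers (5 of 5 higher, median 0.44) moved with the 8 positive genes. So did ganglion cell markers (5 of 5 higher, median 0.65) and rod markers (5 of 5 higher, median 0.23). Pericyte (median 0.25), microglia (0.13) and amacrine cell markers (0.072) were each higher for 4 of 5. Markers of cones (5 of 5 lower, median -0.62), Müller glia (4 of 5 lower, -0.59), RPE (4 of 5 lower, -0.46) and bipolar cells (8 of 10 lower, -0.14) went the other way. The part of these markers in the result was not tested. The other cells are a mixture whose make-up differed between mice, and fibroblasts were 0% of its UMIs in S04, S05 and S07 and up to 3.80% in S08.

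By single type, 0 of the tested genes had an adjusted p below 0.05 in edgeR's test in any of the 8 further types that could be fitted. The same was true of 0% of all genes in 7 types and 0.00831% (1 gene) in ganglion cells. The types gave unadjusted p below 0.05 for 1 of 5 genes in cones (2.78% of all genes), 1 of 5 in bipolar cells (2.07%) and 1 of 2 in ganglion cells (3.18%). They gave it for 0 of 5 in amacrine cells (1.77%), 0 of 3 in horizontal cells (3.18%), 0 of 5 in endothelial cells (4.25%), 0 of 7 in fibroblasts (3.83%) and 0 of 4 in RPE (5.23%). In cones, *Socs3* had 9.84, 7.47, 9.52 and 3.37 CPM in control mice and 17.5, 11.5, 18.2, 13.2 and 11.5 in dKO mice. Each dKO mouse was above each control mouse, and the log2 fold change was 0.71 (standard error 0.26, edgeR, unadjusted p = 0.0145, adjusted p = 1.0 after Benjamini-Hochberg adjustment), on 3 to 49 UMIs per mouse. Groups without overlap were found for 1 of 5 genes in cones (1.04% of all genes) and for 1 of 7 in fibroblasts (9.27%). They were found for none of the others, beside 0.882% of all genes in bipolar cells, 0.812% in amacrine cells, 2.64% in ganglion cells, 4.07% in horizontal cells, 5.63% in endothelial cells and 5.91% in RPE. The fibroblast gene was *Stat3*, with 879.7, 708 and 1306 CPM in control mice S01, S02 and S03 and 1309.5, 1402 and 1396 in dKO mice S06, S08 and S09 (log2 fold change 0.48, standard error 0.25).

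In RPE cells, the target of the Cre driver, *Osmr* had 912, 1283 and 1484 CPM in control mice S01, S02 and S03 and 1479, 677, 2601 and 2148 in dKO mice S06 to S09. The lowest and the highest mice were both dKO, and the lowest, S07, had 26 UMIs in 12 cells. In RPE the log2 fold change was 0.54 (standard error 0.36) for *Osmr* and 0.19 (0.33) for *Stat3*. In bipolar cells the log2 fold change of *Osmr* was 0.82 (standard error 0.35, edgeR, unadjusted p = 0.0298), from 3.70 to 7.42 CPM on average, and in ganglion cells *Cp* had -0.95 (0.39, unadjusted p = 0.0296), where control mouse S02 stood at 59.5 CPM and the other mice at 10.9 to 27.8. Microglia, astrocytes and pericytes were not fitted, since fewer than 3 mice of a group had at least 10 cells.

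The promoters of *Gfap* and *Socs3* are shown because these are the 2 of the 9 genes found in RefSeq's promoter table (*C4b* was not found) that hold TTCNNNGAA, the spacing that *Stat3* binds, in the 250 bases before to 50 after the start. The motif reads the same on both strands, N is any base, and 8.30% of 32851 promoters of 300 bases hold it. Both are on the minus strand of GRCm38.p6, with the motif in capitals, from 2 bases before the start in *Gfap* and from 154 before it in *Socs3*.
Gfap, chr11:102897151-102897450: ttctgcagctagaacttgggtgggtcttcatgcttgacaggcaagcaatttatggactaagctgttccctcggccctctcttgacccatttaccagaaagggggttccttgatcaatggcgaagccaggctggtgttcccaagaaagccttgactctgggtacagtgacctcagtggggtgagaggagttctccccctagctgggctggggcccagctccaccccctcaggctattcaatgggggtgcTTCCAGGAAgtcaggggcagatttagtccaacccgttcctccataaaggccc
Socs3, chr11:117969317-117969616: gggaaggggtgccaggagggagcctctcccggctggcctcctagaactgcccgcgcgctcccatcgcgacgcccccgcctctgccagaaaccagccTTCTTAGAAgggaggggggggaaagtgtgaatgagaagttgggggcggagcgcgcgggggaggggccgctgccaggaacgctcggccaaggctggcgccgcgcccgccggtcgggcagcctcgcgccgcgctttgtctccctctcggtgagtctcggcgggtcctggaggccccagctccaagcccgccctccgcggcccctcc
No match in the promoters of the other 7 genes says only that these letters are not in these windows. Neither gene had an adjusted p below 0.05 in any fit above.

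Further genes of the gp130, JAK and STAT pathway went both ways in Müller glia. Of 23 listed genes 14 were tested there, 0 with an unadjusted or adjusted p below 0.05 in edgeR, 7 higher and 7 lower, with a median log2 fold change of -0.0015 beside 0.0024 for all genes. By lowest p they were *Socs2*, an inhibitor (0.80, standard error 0.50), *Cntfr*, the receptor of ciliary neurotrophic factor (-0.22, 0.16), and *Stat2* (0.19, 0.16). In rods 0 of 13 had an unadjusted p below 0.05 (median 0.11) and in other cells 1 of 20, *Stat2* (0.27, standard error 0.12; median 0.034), beside 1.88% and 2.61% of all genes. Among the 8 endothelin and photoreceptor stress genes, 5 were tested in Müller glia, with 0 below 0.05 unadjusted and a median of 0.0024, and the lowest p were those of *Ece2* (0.59, standard error 0.48), *Fgf2* (-0.18, 0.18) and *Ece1* (0.062, 0.14). *Fgf2*, a growth factor that stressed photoreceptors are known to make, had 34.8 CPM on average in control and 53.2 in dKO rods, and its log2 fold change was 0.60 (standard error 0.21, edgeR, unadjusted p = 0.0152, adjusted p = 1.0 after Benjamini-Hochberg adjustment). It was the only gene of this list, of 5 tested in rods (median 0.13) and 8 in other cells (median 0.15), with an unadjusted p below 0.05, beside 1.88% of all genes in rods and 2.61% in other cells. All lists had 0 genes with an adjusted p below 0.05 in Müller glia, rods and other cells.

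Further genes of reactive astrocytes also had no adjusted p below 0.05 in Müller glia. Of the 7 pan-reactive genes beside the 10, only *Cd44* (0.12, standard error 0.17) and *S1pr3* (0.16, 0.24) could be tested. Of 11 genes of the A1 type 6 were tested (median 0.32), 1 of them with an unadjusted p below 0.05 (beside 2.21% of all genes), *Fkbp5* (-1.72, standard error 0.73), from 83.0 to 31.2 CPM on average, and then *Fbln5* (-0.51, 0.29) and *Gbp2* (0.44, 0.34). Of 12 genes of the A2 type 4 were tested (median -0.012), with *Clcf1* (-0.24, 0.23), *S100a10* (-0.51, 0.49) and *Emp1* (0.40, 0.44) lowest in p. *Plec* (0.30, 0.22), *Lmna* (0.23, 0.27) and *Synm* (0.24, 0.32) led the 6 tested genes for intermediate filaments and their linkers (median 0.095). Of 9 tested iron-handling genes (median -0.042) 1 had an unadjusted p below 0.05 (beside 2.21% of all genes), *Lrp2* (0.33, standard error 0.15), followed by *Slc40a1* (0.82, 0.48) and *Tfrc* (0.21, 0.15). In rods these lists had 0 genes with an unadjusted p below 0.05, with medians of -0.18 for 2 pan-reactive, 0.29 for 3 A1, 0.055 for 1 A2, -0.072 for 5 filament and -0.070 for 9 iron genes. In other cells the A1 list had a median of 0.94, with 10 of 11 genes higher in dKO mice and 4 with an unadjusted p below 0.05, beside 2.61% of all genes. There, 1 of 6 pan-reactive genes (all 6 higher, median 0.40) and 2 of 11 A2 genes (7 higher, median 0.039) also had an unadjusted p below 0.05, and 0 of 7 filament genes (median 0.35) and 0 of 10 iron genes (median 0.0018). Endothelial markers moved with the A1 list there, with 5 of 5 higher in dKO mice, a median of 1.40 and 1 below 0.05 unadjusted, as did fibroblast markers, with 5 of 5 higher and a median of 0.44. Ganglion cell markers (5 of 5 higher, median 0.65) and rod markers (5 of 5 higher, median 0.23) were also higher. Pericyte (median 0.25), microglia (0.13) and amacrine cell markers (0.072) were each higher for 4 of 5. Astrocyte markers went the other way, with 5 of 5 lower and a median of -0.77. So did markers of cones (5 of 5 lower, median -0.62), Müller glia (4 of 5 lower, -0.59), RPE (4 of 5 lower, -0.46) and bipolar cells (8 of 10 lower, -0.14). Endothelial cells made up 5.80% of the other UMIs in S05 and 10.6% in S07, while S06 (1.30%), S08 (1.70%) and S09 (1.97%) lay within the control range of 0.743% to 2.48%. The part of these cell types in the list values was not tested.

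Over the 13 gated types, the genes whose levels were most like those of each of the 10 were taken from 14219 genes by Pearson's r of log2 of CPM plus 1, a description over types that share the same mice. For *Gfap* they were *Gm830*, *Ccdc190* and *C230072F16Rik* (r from 0.971 to 0.978), all highest in astrocytes. For *Vim* they were *Fam114a1*, *Ston1* and *Csf1* (0.930 to 0.966), for *Stat3* *Ppp1r10*, *Ccnl1* and *Ptbp1* (0.933 to 0.964), for *Socs3* *Gm49342*, *H2-Q4* and *Ier2* (0.937 to 0.977) and for *Osmr* *Laptm4a*, *Timp3* and *Mr1* (0.959 to 0.979). For *Edn2* they were *A930036K24Rik*, *Gm45132* and *ENSMUSG00000121315* (0.9696 to 0.975), all highest in rods. For *Cp* they were *Plpp3*, *Carhsp1* and *Plscr4* (0.9402 to 0.9496), for *C4b* *Lsp1*, *Gm4117* and *G530011O06Rik* (0.906 to 0.929), for *Serpina3n* *Fbln7*, *Fmod* and *Prrx2* (0.939 to 0.956) and for *Lcn2* *Cyp2j13*, *4930401O10Rik* and *Lockd* (0.937 to 0.952).

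Near-identical copies could share reads with *Serpina3n* and *C4b*, which makes their counts uncertain. *C4a* had 419 UMIs beside 2174 of *C4b*, and the 8 other *Serpina3* genes counted had from 3 to 48 UMIs each beside 1014 of *Serpina3n*. Of these 9 copies, 0 could be tested in Müller glia or rods, and in other cells *C4a* alone was tested (log2 fold change -0.48, standard error 0.24). *Hps3*, a protein-coding gene, overlaps *Cp* on the opposite strand, long noncoding RNAs do so at *Vim*, *C4b*, *Stat3*, *Socs3* and *Osmr*, and none of the 10 overlaps a gene on its own strand.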

How the data were processed

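Single-cell RNA of the retinas of 9 mice, made by split-pool barcoding of polyA RNA, was read as the raw UMI counts deposited by the authors, a matrix of 37725 genes by 31089 cells. Per the labels, the authors processed them with R 4.2.2 and Seurat 4.3.0. Depth ran from 15079143 UMIs in S05 to 66528160 in S06, and from 215862 (S04) to 7072442 (S06) within Müller glia. No normalized values of the authors were used.

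Cells were gated into 13 types by marker genes that were fixed in the design, while the thresholds were chosen after seeing the data. The score was the geometric mean over a type's markers of UMIs per 10000 plus 1. Cells that passed several gates (1578) or none (1757) were left out, and no doublet caller, Harmony or MAST was run. Astrocytes needed at least 2 UMIs of *Pax2*. UMIs were summed per mouse with at least 10 cells of a type and tested with edgeR 4.0.16 (quasi-likelihood, TMM, filterByExpr, Benjamini-Hochberg over all genes tested) in R 4.3.3, which was also tested on simulated data. Standard errors were derived from the p of the test. Exact permutation tests over mice, two-sided, compared Müller glia with rods on log2 of CPM plus 1, the group difference between them, and shares of cells. Python 3.11.15, numpy 2.4.6, scipy 1.17.1 and matplotlib 3.10.9 did the rest.

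The alternatives were DESeq2 1.42.0, scaling by library size alone, all genes kept whatever their counts, each mouse left out, S06 and S07 summed as 1 mouse, a doubled marker minimum (stricter for each type, so that fewer cells pass several gates and some enter a type), the 5% of cells with the most UMIs left out, the mice without S04, S05 and S07, a term for that split, cells thinned to 3000 UMIs and a pseudocount of 5 CPM. Chosen after seeing the data were the exact test by class, the highest cell left out, and each mouse left out of the group difference between Müller glia and rods.

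The genes and lists were chosen with earlier results of these data known. All 10 genes are named with values, and of each list the genes with an adjusted p below 0.05, or otherwise the 3 with the lowest p in Müller glia. The lists were the gp130, JAK and STAT pathway, endothelin and photoreceptor stress, pan-reactive, A1 and A2 astrocyte genes, intermediate filaments, iron handling, and near-identical copies. Gene positions and 3′-UTRs are from GENCODE M39 (GRCm39), and promoters and microRNAs from RefSeq tables of GRCm38.p6. Whether counting used the strand is not stated. Limits for a count of 0 (3 counts) cover counting error only.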

Additional observations from a re-analysis of the deposited data

Results flagged for a closer look

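Of 59 groups of mice examined, 7 had 1 mouse far from the others of its group, with a count of 0 taken as 0 CPM. Chance gives about 1 in 20 groups for normally distributed values, a rate that need not hold for CPM with counts of 0. The 7 fell on 5 mice. In Müller glia, *Lcn2* stood at 19.7 CPM in S02 against 0 to 2.71 in the other control mice, and at 49.3 in S07 against 0 to 0.568 in the other dKO mice. *Edn2* in Müller glia had 2.04 CPM in S05, from 1 UMI, and 0 in the other dKO mice. The 0 UMIs of S07 allow up to 3.79 CPM, so S05 is not shown to stand apart from S07. *Cp* in Müller glia was low in S06, at 1687 CPM, against 2051 to 2149 in the other dKO mice. In rods, *Lcn2* had 1.39 CPM in S04 and 0.623 to 0.700 in the other control mice. In the other cells, *Gfap* had 84.2 CPM in S04 against 6.04 to 16.4 in the other control mice, and *Edn2* had 0.0805 in S06 and 0 in the other dKO mice. These counts of 0 allow from 0.112 (S08) to 0.705 CPM (S05), so S06 is not shown to stand apart for *Edn2*.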

How the results depend on the processing

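Over the alternatives, 26 of 136 log2 fold changes in Müller glia changed sign, 9 of 118 in rods and 10 of 146 in other cells, and the rest kept it, while none of the 10 genes had an adjusted p below 0.05 in edgeR or DESeq2 (lowest 0.816, 0.873 and 0.881). *Stat3*, *Vim* and *Edn2* in rods kept their sign in all 17. For each value below the cause was not tested.

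Genes with an adjusted p below 0.05 numbered 1 with DESeq2 and 2 without a filter in Müller glia, and 2 and 2 in rods. With DESeq2, *C4b* in Müller glia was 0.14. With a stricter gate, Müller glia gave *C4b* 0.81, *Gfap* -0.56 and *Cp* 0.042, rods gave *Osmr* 0.25, and the difference between Müller glia and rods was -0.20 for *Lcn2* and 0.84 for *Serpina3n* (exact p = 0.0625). Without the 5% of cells with the most UMIs, *C4b* was 0.39 and *Cp* 0.00080 in Müller glia, and *C4b* was -0.077 in other cells. With S06 and S07 summed, *Serpina3n* was -0.021 and *Socs3* -0.017 in Müller glia. Among the mice other than S04, S05 and S07, *Serpina3n* was -0.30 and *Socs3* -0.27 in Müller glia, *Osmr* 0.050 in rods and *Gfap* 0.69 in other cells. With a term for that split, *Serpina3n* was -0.14 and *Socs3* -0.060 in Müller glia and *Osmr* 0.086 in rods. Thinned, the group difference in the share of Müller glia was 0.0165 for *Lcn2* and -0.567 for *Stat3*.

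Leaving out each mouse in turn gave these lowest and highest values. Counts of genes were 0 to 1 in Müller glia, 0 to 1 in rods and 0 to 0 in other cells. In Müller glia, *Gfap* ran from -0.073 to 2.23, *Serpina3n* from -0.29 to 1.42, *C4b* from -0.73 to 0.38, *Cp* from -0.15 to 0.036 and *Socs3* from -0.062 to 0.30. In rods, *Gfap* ran from -0.49 to 0.080, *Cp* from -0.035 to 0.19 and *Osmr* from -0.31 to 0.15. In other cells, *Gfap* ran from -1.44 to 0.23, *C4b* from -0.60 to 0.40, *Stat3* from -0.10 to 0.36, *Cp* from -0.052 to 0.58 and *Socs3* from 0.27 to 1.06. Müller glia minus rods ran from -0.065 to 0.69 for *Lcn2*. The group difference between Müller glia and rods ran from 1.16 to 2.77 for *Gfap*, from -1.55 to 0.57 for *Lcn2* and from -0.024 to 0.81 for *C4b*, in a test added after seeing the data. Differences in shares of Müller glia ran from -0.129 to 1.83 for *Gfap*, from -10.5 to -3.69 for *Vim* (exact p = 0.0286 without S06), from -0.873 to 0.130 for *Lcn2*, from 0 to 0.694 for *Edn2* and from -0.890 to 3.38 for *Osmr*.

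With 18 Müller glia in S04, 36 in S05 and 62 in S07, the depth of these mice limits what can be read of the less abundant genes.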
